A study of Mus musculus with 8 samples.

Results

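The mRNAs described here encode the anaphase-promoting complex (APC/C) and the spindle assembly checkpoint, the machine that starts anaphase and the surveillance system that holds it back. The 32 genes were listed by symbol and matched to the deposited count table by gene identifier. All 32 were found among its 55385 genes, and all 32 passed the filter on low counts that left 14929 genes for testing. By role, 14 are subunits of the APC/C and 5 are its coactivators, inhibitor and ubiquitin-conjugating (E2) enzymes. A further 9 were listed with the mitotic checkpoint complex and its assembly, with Mad2l2 included as a relative of Mad2l1. Cdc20, which that complex binds, was counted as a coactivator. The last 4 form the Rod-Zw10-Zwilch (RZZ) complex with its partner Spindly.

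The series sequenced polyadenylated RNA from pools of mouse oocytes grown in culture from embryonic stem cells of a C57BL/6 x 129/SvJ background. The 4 groups were sex-converted MII, native MII, sex-converted GV and native GV oocytes, with 2 libraries each. Sex-converted oocytes came from a stem cell line turned XX, in a study of oocytes made from male mice, and native oocytes came from a native XX line. With 1 line of each kind, sex conversion and other differences between the lines cannot be told apart. GV oocytes, arrested in prophase of meiosis I, were collected on day 11 of growth culture, in the presence of dbcAMP and IBMX and stripped of cumulus cells with a capillary. Growth culture followed 21 days in reconstituted ovaries built with somatic cells of embryonic day 12.5 female gonads. MII oocytes, arrested at metaphase II, were collected after 16 hours of maturation with FSH, EGF and hCG, were stripped with hyaluronidase and were picked by their first polar body. Stem cells of all groups carried Blimp1-mVenus and Stella-ECFP reporter transgenes, and oocytes positive for Stella-ECFP were taken. Pools held 35 to 58 oocytes at MII and 31 to 158 at GV, and the libraries 10306471 to 14999003 counted reads. The labels call the samples biological duplicates without saying whether each came from a separate culture, so p-values measure the spread between these libraries.

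The APC/C is a ubiquitin ligase that marks cyclin B and securin for destruction, and their loss lets chromosomes separate and the cell leave metaphase. It works only with a coactivator, Cdc20 in metaphase and Fzr1 (Cdh1) in prophase and after exit. At kinetochores without microtubules, the checkpoint kinases and the Mad and Bub proteins assemble the mitotic checkpoint complex, which binds Cdc20 and blocks the APC/C. In mouse oocytes Fzr1-driven activity helps to keep the GV stage arrested, the checkpoint times the first division, and the APC/C is then held inactive again in the MII egg until fertilisation.

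Levels are given as CPM, counts scaled to a common library total and by trimmed mean of M-values (TMM) factors. These factors correct the totals for differences in composition, on the assumption that most genes do not change or that rises and falls balance. They were 0.714 to 0.733 at MII and 1.33 to 1.43 at GV. Between the stages 65.5% of tested genes in the sex-converted and 65.2% in the native line were called, so the size of each change depends on that assumption. A change from GV to MII is therefore relative to other mRNAs of the oocyte, and in RNA selected by poly(A) a longer tail and more mRNA cannot be told apart. In pooled oocytes, fewer cells that express a gene and less RNA per cell cannot be told apart either. Calls rest on edgeR's quasi-likelihood test over all 14929 genes, with a Benjamini-Hochberg adjusted p below 0.05, and fold changes are MII over GV unless the lines are compared.

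The pools carried oocyte RNA with traces of somatic RNA. The 10 oocyte markers summed to 17690 to 21120 CPM at MII and to 12690 to 15270 CPM at GV. Their median was 854 to 954 CPM at MII and 886 to 1059 CPM at GV. Mos and Oosp1 had more reads in each MII library than in any GV library, and reads of Gdf9 and Dppa3 overlapped between stages. Zp1, Zp2, Zp3, Bmp15, Nlrp5 and Figla had fewer at MII, as Zp3 with 2966 to 5663 at MII and 22302 to 36064 at GV. The 15 granulosa and cumulus markers summed to 118 to 151 CPM at MII and to 57.1 to 79.0 CPM at GV, with 2 to 7 of 15 and 2 to 6 of 15 at 0 reads and the granulosa hormone gene Amh at 0 or 1 read in every library. Others of this list were present and had more reads at MII, among them the aromatase gene Cyp19a1 (429 to 665 at MII and 208 to 349 at GV) and the Kit ligand gene Kitl (213 to 376 and 45 to 106). Nr5a2 (244 to 274 at MII and 445 to 851 at GV) and Fshr (0 and 7 to 24) had fewer. The 12 stromal and theca markers summed to 16.0 to 88.3 CPM at MII and to 1.69 to 2.38 CPM at GV, with 4 or 5 and 6 or 7 of them at 0 reads. Native MII replicate 1 and sex-converted MII replicate 1 held the most, at 88.3 and 58.5 CPM, and most of the reads came from Spp1 (53 to 313 at MII and 0 at GV), Thbs1 (23 to 418 and 0 to 12) and Vim (15 to 175 and 1 to 4), while the collagen gene Col1a2 and the stromal proteoglycan gene Lum had 0 reads in all libraries. The 9 endothelial and blood markers summed to 207 to 292 CPM at MII and to 77.7 to 115 CPM at GV, mostly from Pecam1 (1870 to 2884 reads at MII and 837 to 1742 at GV) and, at GV, Tek (45 to 107 and 268 to 404 reads), with the endothelial gene Cdh5 at 0 to 3 reads. The 5 proliferation markers summed to 808 to 962 CPM at MII and to 549 to 653 CPM at GV. Within them Pcna and Mcm2 had more reads at MII, and Mki67 (279 to 1122 at MII and 1274 to 3607 at GV), Top2a (14 to 28 and 762 to 1598) and Mcm5 (95 to 171 and 2254 to 2798) had fewer, so their median was 30.5 to 107 CPM at MII and 103 to 126 CPM at GV. The 13 mitochondrially encoded mRNAs summed to 5910 to 7280 CPM at MII and to 526 to 1869 CPM at GV. These sums moved with stage, and their part in the changes of the 32 genes was not tested.

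Some of the 32 mRNAs rose in maturation and others fell, as among genes in general. In the sex-converted line 8 of the 32 genes rose and 14 fell, and in the native line 9 rose and 16 fell. Among all genes tested, 29.3% rose and 36.2% fell in the sex-converted line (65.5% together), and 29.6% rose and 35.7% fell in the native line (65.2% together), so a change as such was common. At a change of at least 2-fold, 7 rose and 10 fell in the sex-converted line, beside 25.6% and 33.8% of all genes. In native oocytes 7 rose and 13 fell at that size, beside 26% and 33.3% of all genes. Of the 32 genes, 8 rose in both lines and 13 fell in both lines, against 26.9% and 32% of all genes. The 8 that rose in both were Cdc27, Mad2l1bp, Mad2l1, Cdc20, Anapc10, Cdc26, Bub1b and Anapc1. The 13 that fell in both were Zwilch, Bub1, Anapc2, Fbxo5, Zw10, Ttk, Fzr1, Anapc7, Anapc15, Mad1l1, Anapc16, Bub3 and Anapc4. The median log2 fold change was -0.35 in the sex-converted line and -0.70 in the native line, beside -0.35 and -0.31 over all genes. With library totals as the only scaling, which moved the median of all genes by -0.93 in the sex-converted line and -0.91 in the native line, 7 rose and 22 fell in each line.

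**Figure D1:**
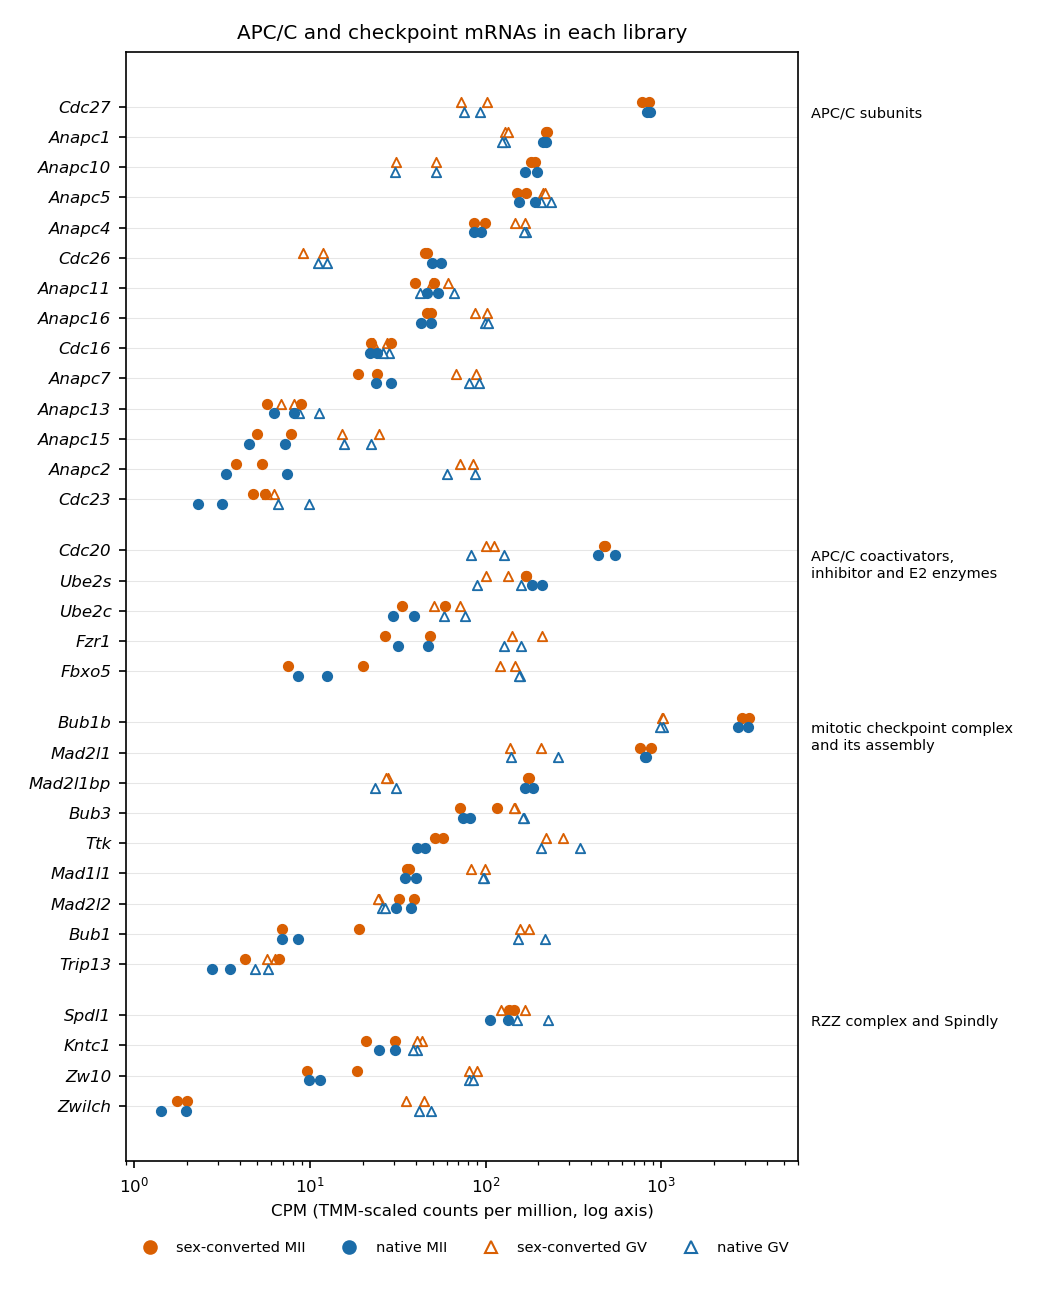
Level of each of the 32 mRNAs in each of the 8 libraries, as TMM-scaled CPM on a log axis, with genes grouped by role and ordered by their mean at MII. Filled circles are MII and open triangles GV libraries, orange is the sex-converted and blue the native line. Bub1b lies rightmost at both stages, and the MII circles of Cdc27, Mad2l1bp, Mad2l1 and Cdc20 lie to the right of their GV triangles while those of Zwilch, Bub1, Fbxo5 and Anapc2 lie to the left.

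Of the 14 subunits of the APC/C, 4 rose (28.6%) and 5 fell (35.7%) in the sex-converted line, close to the 29.3% and 36.2% of all genes. In the native line 4 rose (28.6%) and 6 fell (42.9%), beside 29.6% and 35.7% of all genes. Cdc27 is a scaffold subunit of tetratricopeptide repeats that docks the tails of the coactivators. It had 854 and 780 CPM in sex-converted and 832 and 858 CPM in native MII oocytes, against 72.7 and 102 CPM in sex-converted and 93.2 and 75.6 CPM in native GV oocytes. The 4 MII libraries all lay far above the 4 GV libraries. This was 9.33-fold higher in sex-converted oocytes (log2 fold change 3.22, SE 0.212; adjusted p = 7.43e-07) and 10.0-fold higher in native ones (3.32, SE 0.213; adjusted p = 6.36e-07). The gene, ENSMUSG00000020687.13, is at chr11:104502745-104550620 (GRCm38, minus strand).

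Anapc10, which helps the coactivator to hold substrates, had 181 and 191 CPM in sex-converted and 197 and 168 CPM in native MII oocytes, against 30.9 and 52.1 CPM in sex-converted and 52.2 and 30.7 CPM in native GV oocytes. Sex-converted replicate 2 and native replicate 1 were the higher GV libraries. Those libraries also held more mitochondrially encoded mRNA, summing to 1674 and 1869 CPM over 13 genes, beside 526 and 559 CPM in the other GV libraries of the sex-converted and native line. The part of this difference in the values of Anapc10 was not tested. The groups did not overlap, and the log2 fold change was 2.17 (SE 0.301) in the sex-converted and 2.14 (SE 0.301) in the native line. Cdc26, a small subunit that stabilises Cdc16, had 45.3 and 46.4 CPM in sex-converted and 55.6 and 49.8 CPM in native MII oocytes, against 11.9 and 9.21 CPM in sex-converted and 11.2 and 12.6 CPM in native GV oocytes. It was 4.34-fold higher at MII in the sex-converted and 4.43-fold higher in the native line. Anapc1, the largest scaffold subunit, rose less, with 212 to 224 CPM at MII and 125 to 134 CPM at GV. Its log2 fold change was 0.76 (SE 0.165) in the sex-converted and 0.77 (SE 0.165) in the native line, and with library totals only it was -0.18 and -0.14, with no call.

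The subunit that fell most was the cullin Anapc2, which forms the catalytic core together with the RING subunit Anapc11. Anapc2 had 5.37 and 3.8 CPM in sex-converted and 7.45 and 3.36 CPM in native MII oocytes, against 85.3 and 71.2 CPM in sex-converted and 60.6 and 87.3 CPM in native GV oocytes. The highest MII library was far below the lowest GV library. Anapc2 was 17.1-fold lower in the sex-converted line (log2 fold change -4.10, SE 0.383; adjusted p = 5.02e-06) and 13.5-fold lower in the native line (-3.76, SE 0.375; adjusted p = 7.85e-06), where it had -4.46 without MII replicate 1. Anapc11 was not called in either line, with 39.95 to 54.0 CPM at MII and 42.3 to 66.3 CPM at GV. Its log2 fold change was -0.29 (95% interval -0.87 to 0.30) in the sex-converted line and -0.11 (95% interval -0.69 to 0.47) in the native line. So 1 gene of this catalytic pair passed the test and the other did not; the difference between them was not tested.

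Anapc7, another repeat subunit of the scaffold, had 24 and 18.8 CPM in sex-converted and 29.0 and 23.8 CPM in native MII oocytes, against 87.8 and 68.1 CPM in sex-converted and 80.3 and 91.6 CPM in native GV oocytes. Anapc15, which helps the complex to shed the mitotic checkpoint complex, had 5.04 and 7.80 CPM in sex-converted and 7.26 and 4.51 CPM in native MII oocytes, against 24.8 and 15.3 CPM in sex-converted and 15.7 and 22.4 CPM in native GV oocytes. Both were lower in each MII library than in any GV library. Anapc7 was 3.64-fold lower in the sex-converted and 3.25-fold lower in the native line, and Anapc15 was 3.11-fold and 3.21-fold lower. Near-identical copies share sequence with Anapc15, namely Anapc15-ps and Gm9364, which themselves had 25 reads together at MII and 109 at GV, so part of its reads may be misplaced or lost. Similar copies exist of Mad2l1 (Gm42430, with 315 reads at MII and 67 at GV), Anapc10 (Gm15530, 7 and 8) and Cdc26 (Gm9174, 1 and 3), and their reads may be shared in the same way. Anapc16, a small accessory subunit, had 46.3 and 48.8 CPM in sex-converted and 49.3 and 42.7 CPM in native MII oocytes, against 87.6 and 102 CPM in sex-converted and 99.6 and 103 CPM in native GV oocytes. It fell 2.0-fold in the sex-converted and 2.21-fold in the native line. The platform subunit Anapc4 fell by less, with log2 fold changes of -0.77 in the sex-converted and -0.90 in the native line.

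Anapc5, Anapc11, Anapc13 and Cdc16 were called in neither line, with log2 fold changes between -0.48 and 0.03. When only genes with a mean of at least 50 reads were tested, Anapc5 was called lower in the sex-converted line (-0.53, adjusted p = 0.0166) and in the native line (-0.44, 0.0376). Cdc23, a repeat subunit next to Cdc16, had few reads, 20 to 51 per library at MII and 94 to 177 at GV. It had 5.58 and 4.75 CPM in sex-converted and 3.15 and 2.31 CPM in native MII oocytes, against 6.26 and 5.70 CPM in sex-converted and 9.86 and 6.61 CPM in native GV oocytes. Cdc23 was not called in the sex-converted line (log2 fold change -0.21, SE 0.362; adjusted p = 0.625) and was 3.0-fold lower in the native line (-1.58, SE 0.38; adjusted p = 0.00353). The kinesin gene Kif20a lies on the opposite strand and overlaps 13.4% of the exon bases of Cdc23. Kif20a had 3306 to 4779 reads at MII and 1450 to 2258 at GV, and no source used here gives the strand used in counting, so its reads and those of Cdc23 cannot be fully told apart. The same limit holds for other members, most of all Anapc15 (38.4% of exon bases, with Tomt), Ube2c (22.8%, Tnnc2) and Anapc13 (10.05%, Cep63). Cep63 had 17 to 35 reads at MII and 381 to 478 at GV, Tomt 0 to 5 and Tnnc2 0 to 3 per library.

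**Figure D2:**
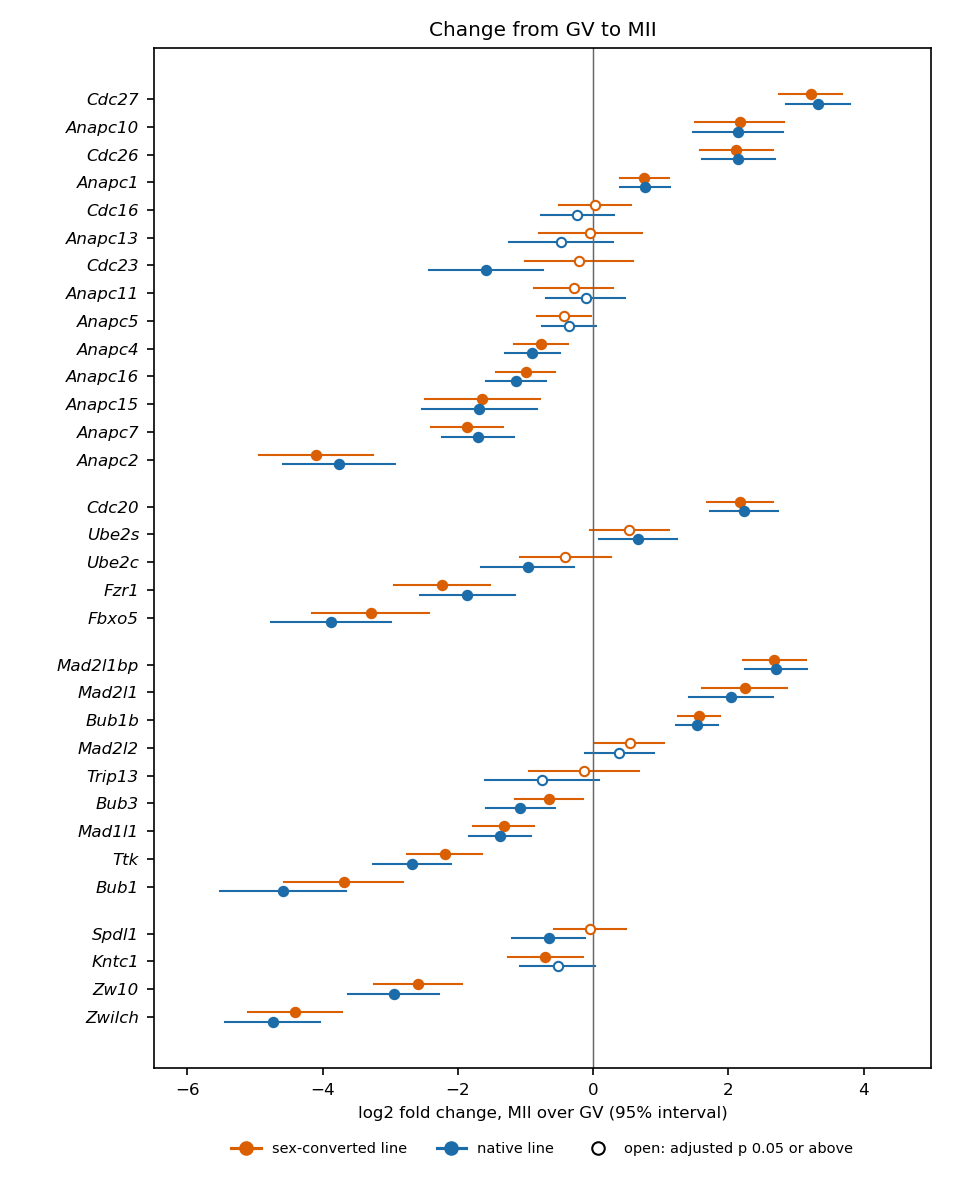
Log2 fold change of MII over GV for each gene in the sex-converted (orange) and native (blue) line, with 95% intervals, grouped by role as in the plot of levels by library. Filled points were called and open points were not. Cdc27 is highest at 3.22 and 3.32, and Zwilch is lowest at -4.41 and -4.74.

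Of the coactivators, Cdc20 rose and Fzr1 fell. Cdc20, which drives the metaphase to anaphase step, had 473 and 479 CPM in sex-converted and 544 and 439 CPM in native MII oocytes, against 111 and 100.1 CPM in sex-converted and 82.5 and 127 CPM in native GV oocytes. Each MII library was above every GV library by more than the spread within either stage. Cdc20 was 4.50-fold higher in sex-converted (log2 fold change 2.17, SE 0.225; adjusted p = 1.01e-05) and 4.70-fold higher in native oocytes (2.23, SE 0.225; adjusted p = 8.49e-06). Fzr1 had 48.3 and 26.8 CPM in sex-converted and 47.1 and 31.7 CPM in native MII oocytes, against 210.5 and 142 CPM in sex-converted and 128 and 159 CPM in native GV oocytes. It was 4.70-fold lower in the sex-converted line and 3.63-fold lower in the native line.

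Fbxo5 (Emi1), an inhibitor of the APC/C that acts in prophase, fell further. It had 20.1 and 7.51 CPM in sex-converted and 12.6 and 8.56 CPM in native MII oocytes, against 121 and 148 CPM in sex-converted and 157 and 155 CPM in native GV oocytes. Sex-converted MII replicate 1 was the highest of the MII libraries and still far below all GV libraries. Its fall was 14.7-fold in native oocytes (log2 fold change -3.88, SE 0.403; adjusted p = 1.03e-05) and 9.79-fold in sex-converted ones (-3.29, SE 0.391; adjusted p = 2.62e-05), where it had -4.16 without MII replicate 1 and -2.74 without MII replicate 2.

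The calls of the E2 enzymes depended on single libraries or on the fit, and no difference between the lines was called. Ube2c, which places the first ubiquitins on a substrate, had 58.8 and 33.4 CPM in sex-converted and 29.7 and 39.1 CPM in native MII oocytes, against 50.7 and 71.8 CPM in sex-converted and 76.2 and 58.3 CPM in native GV oocytes. The groups overlapped in the sex-converted line, where it was not called (log2 fold change -0.41, SE 0.306). It was lower in the native line (-0.97, SE 0.309, adjusted p = 0.0171), a call that was lost without native GV replicate 1 (adjusted p = 0.106) or native MII replicate 1 (adjusted p = 0.111). Ube2s, which extends the chain, had 169 to 210.4 CPM at MII and 89.4 to 159 CPM at GV. Its log2 fold change was 0.54 (adjusted p = 0.0918) in the sex-converted line and 0.66 (adjusted p = 0.0442) in the native line. The native call was lost without GV replicate 1 (0.34, adjusted p = 0.209), MII replicate 1 (0.56, 0.174) or MII replicate 2 (0.76, 0.0745), and in the fit blocked on replicate number (0.67, 0.0611). With only the groups compared in the fit, Ube2s was called in the sex-converted line (0.53, adjusted p = 0.0389) and not in the native line (0.66, 0.061). With library totals only the value was -0.26.

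In the checkpoint group 3 of 9 rose (33.3%) and 4 fell (44.4%) in each line, the same genes in both, beside 29.3% to 29.6% and 35.7% to 36.2% of all genes. The kinase-like protein Bub1b (BubR1), the part of the mitotic checkpoint complex that contacts the APC/C, had the highest CPM of the 32 mRNAs at both stages. It had 3156 and 2862 CPM in sex-converted and 3106 and 2733 CPM in native MII oocytes, against 1014 and 1018 CPM in sex-converted and 1020 and 987 CPM in native GV oocytes. Each stage was tight and the stages did not overlap. Bub1b was 2.96-fold higher in sex-converted oocytes (log2 fold change 1.57, SE 0.141; adjusted p = 3.98e-06) and 2.91-fold higher in native ones (1.54, SE 0.141; adjusted p = 4.29e-06).

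Its relative Bub1, the kinase that recruits checkpoint proteins and shugoshin to centromeres, went the other way. Bub1 had 19.1 and 6.94 CPM in sex-converted and 6.97 and 8.56 CPM in native MII oocytes, against 157 and 177 CPM in sex-converted and 219 and 154 CPM in native GV oocytes. It was 12.9-fold lower in the sex-converted line (log2 fold change -3.69, SE 0.40; adjusted p = 1.38e-05) and 24.1-fold lower in the native line (-4.59, SE 0.422; adjusted p = 4.43e-06). As for Fbxo5, sex-converted MII replicate 1 was the highest MII library, and without it the value in that line was -4.58. Of the 13 genes that fell in both lines, 6 had their highest MII value in this library (46.2%), beside 30.8% of the 4773 genes of all kinds that fell in both lines. Native MII replicate 1 was highest for 4 of the 13 (30.8%), beside 43% of the 4773. Bub3, the adaptor that brings both proteins to kinetochores, had 116 and 71.4 CPM in sex-converted and 74.4 and 81.5 CPM in native MII oocytes, against 148 and 145 CPM in sex-converted and 165 and 163 CPM in native GV oocytes. It fell by 0.65 on the log2 scale in the sex-converted line, a call lost without sex-converted MII replicate 2 (log2 fold change -0.34, adjusted p = 0.243) and without sex-converted GV replicate 1 (-0.62, 0.0868) or 2 (-0.63, 0.0813). It fell by 1.08 in native oocytes.

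Mad2l1 (Mad2), the protein whose conformational switch seeds the inhibitor, had 756 and 872 CPM in sex-converted and 823 and 809 CPM in native MII oocytes, against 138 and 206 CPM in sex-converted and 258 and 139 CPM in native GV oocytes. It was 4.73-fold higher at MII in the sex-converted and 4.11-fold higher in the native line. As for Anapc10, sex-converted replicate 2 and native replicate 1 were the higher GV libraries. This split was not particular to these genes. The same libraries were the higher ones for others, among them Cdc27, Ttk, Bub1, Spdl1 and Ube2c. They were the lower ones for Cdc20, Fzr1, Anapc2, Anapc11, Anapc15 and Ube2s, among others. Mad1l1 (Mad1), its anchor at the kinetochore, fell by 1.32 on the log2 scale in the sex-converted and by 1.38 in the native line. It had 36.9 and 36.0 CPM in sex-converted and 40.1 and 34.6 CPM in native MII oocytes, against 83.0 and 99.4 CPM in sex-converted and 97.5 and 96.5 CPM in native GV oocytes. Mad2l1bp (p31comet), which removes Mad2 from the inhibitor together with the ATPase Trip13, rose. It had 176 and 175 CPM in sex-converted and 186 and 168 CPM in native MII oocytes, against 27.9 and 27.0 CPM in sex-converted and 23.4 and 30.9 CPM in native GV oocytes.

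The change of Mad2l1bp was 6.4-fold in the sex-converted line (adjusted p = 1.69e-06) and 6.52-fold in the native line (adjusted p = 1.57e-06). Trip13 itself had 24 to 61 reads per library at MII and 82 to 117 at GV and was not called, with log2 fold changes of -0.14 (95% interval -0.95 to 0.67) in the sex-converted and -0.75 (95% interval -1.59 to 0.09) in the native line. Mad2l2 (Rev7), a relative of Mad2 that inhibits Fzr1 and also serves DNA repair, was not called in either line, with 30.9 to 39.3 CPM at MII and 24.5 to 26.7 CPM at GV. Its values did not overlap between stages. With RLE factors or DESeq2 it was called in the sex-converted line (adjusted p = 0.0387 and 0.0361). Ttk (Mps1), the kinase at the top of the checkpoint, had 51.5 and 57.0 CPM in sex-converted and 40.9 and 45.2 CPM in native MII oocytes, against 221 and 275 CPM in sex-converted and 344 and 207 CPM in native GV oocytes. It was 4.58-fold lower in the sex-converted line (adjusted p = 2.16e-05) and 6.4-fold lower in the native line (adjusted p = 6.24e-06).

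The RZZ complex forms the outer corona of kinetochores and brings dynein and the Mad1-Mad2 pair there. Of the 4 genes of this complex and Spindly, 0 rose and 3 fell (75%) in each line. Among all genes 29.3% to 29.6% rose and 35.7% to 36.2% fell. Zwilch and Zw10 fell by large amounts. Zwilch had 1.75 and 2.00 CPM in sex-converted and 1.43 and 1.97 CPM in native MII oocytes, against 35.5 and 44.8 CPM in sex-converted and 48.7 and 41.9 CPM in native GV oocytes. In reads this was 15 to 21 per MII library and 595 to 919 per GV library. Zwilch was 21.3-fold lower in the sex-converted line (log2 fold change -4.41, SE 0.315; adjusted p = 1.1e-06) and 26.7-fold lower in the native line (-4.74, SE 0.322; adjusted p = 8.04e-07), the largest fall among the 32 genes in each. Zw10 had 18.5 and 9.70 CPM in sex-converted and 11.5 and 9.95 CPM in native MII oocytes, against 88.9 and 80.2 CPM in sex-converted and 81.0 and 85.0 CPM in native GV oocytes. It was 6.01-fold lower in the sex-converted and 7.74-fold lower in the native line.

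Kntc1 (Rod), the largest subunit, had 20.9 to 30.6 CPM at MII and 38.8 to 43.6 CPM at GV, and its stages did not overlap. It fell by 0.70 in the sex-converted line (adjusted p = 0.0275), a call lost without sex-converted MII replicate 1 (log2 fold change -0.46, adjusted p = 0.204), GV replicate 1 (-0.63, 0.109) or GV replicate 2 (-0.72, 0.0735). The native value was -0.53 (adjusted p = 0.0843), called at a mean of at least 50 reads (-0.60, adjusted p = 0.0411). Spdl1 (Spindly), the adaptor that links the RZZ complex to dynein, had 144 and 136 CPM in sex-converted and 106 and 134 CPM in native MII oocytes, against 122 and 168 CPM in sex-converted and 227 and 151 CPM in native GV oocytes. The stages overlapped in the sex-converted line, where the log2 fold change was -0.05 (adjusted p = 0.863). The native value was -0.66 (adjusted p = 0.0329), and -0.29 (adjusted p = 0.353) without native GV replicate 1 and -0.50 (adjusted p = 0.194) without native MII replicate 1.

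To compare genes with each other, counts were divided by the length of the union of each gene's exons and scaled to a common total per library (TPM). TPM orders genes within a stage and is not used here for changes between stages, because it lacks the composition scaling of CPM. At MII Bub1b led at 1895 ± 116 TPM (SD, n = 4 libraries), followed by Cdc20 at 707 ± 48.0, Mad2l1bp at 379 ± 9.29, Cdc27 at 364 ± 18.3 and Mad2l1 at 266 ± 16.1 TPM. The ranges of Mad2l1bp and Cdc27 overlapped, so their order is not resolved, and Cdc27 ranks above Mad2l1bp when the longest transcript is taken as length. The other ranges among these 5 did not touch. At the low end were Zwilch at 1.14 ± 0.188 and Cdc23 at 1.14 ± 0.442 TPM, whose ranges overlapped.

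At GV Bub1b was again first, at 1132 ± 47.8 TPM, but Fbxo5 came next at 346 ± 27.9 TPM. Cdc20 at 270 ± 53.0, Ttk at 254 ± 52.7, Spdl1 at 229.7 ± 52.5 and Bub1 at 194 ± 27.1 TPM followed, each with a range that overlapped that of the gene ranked just above it. With the longest transcript as length the order after Bub1b was Ttk at 343 ± 71.2, Fbxo5 at 283 ± 22.9, Spdl1 at 251 ± 57.2, Anapc5 at 245 ± 17.1 and Cdc20 at 223 ± 43.7 TPM, so ranks 2 to 6 at GV are not resolved. By exon union Fbxo5 stood at rank 22 at MII and rank 2 at GV (23 and 3 by longest transcript), Bub1 at 27 and 6 (27 and 8), and Ttk at 16 and 4 (16 and 2). Cdc27 stood at rank 4 at MII and rank 20 at GV (3 and 22). Within the APC/C the most and least abundant subunit differed 233-fold to 564-fold per length at MII and 32.7-fold to 59.7-fold at GV. The lowest was Cdc23 at both stages, and the highest was Cdc27 at MII and Anapc5 at GV. With the longest transcript as length these ratios were 117 to 283 at MII and 25.8 to 47.0 at GV. All of them rest on Cdc23, which had 20 to 51 reads per MII library and overlaps Kif20a. They are thus no firm measure of the range within the complex. The next lowest subunits at MII were Anapc15 at 3.25 ± 0.828 and Anapc2 at 3.94 ± 1.36 TPM by exon union.

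**Figure D3:**
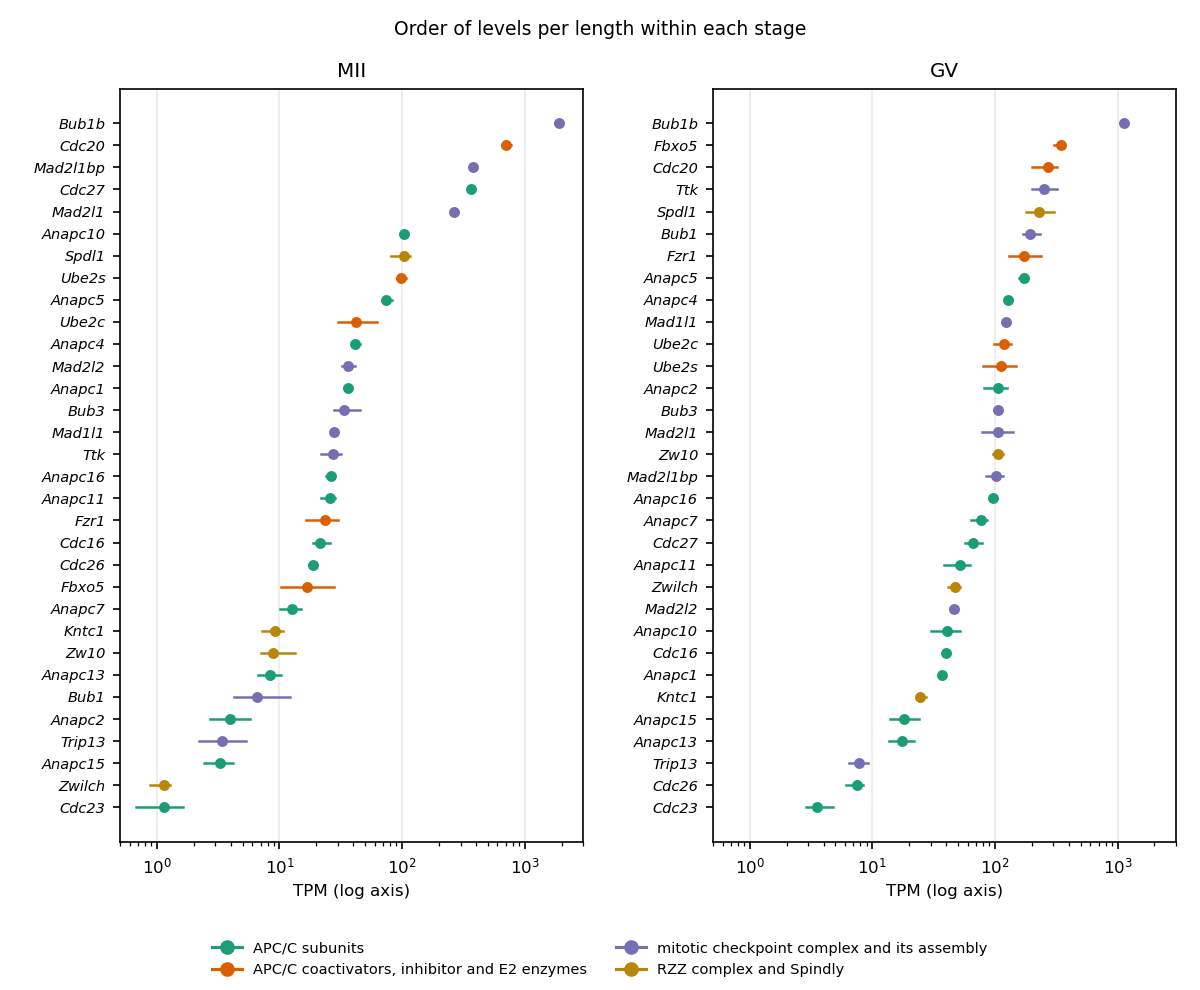
TPM by exon union length on a log axis at MII (left) and GV (right), with genes sorted by their mean over 4 libraries (points) and lines from the lowest to the highest library. Colours give the role. Bub1b is first in both panels, and Fbxo5 and Bub1 stand near the top at GV and in the lower part at MII.

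Ratios of TPM between partners in the same library need no scaling between libraries. Bub1b over Bub1 was 169 and 420 in sex-converted and 454 and 325 in native MII oocytes, against 6.58 and 5.87 in GV oocytes of the sex-converted line and 4.74 and 6.53 in those of the native line. Cdc20 over Fzr1 was 23.5 and 42.9 in sex-converted and 27.8 and 33.2 in native MII oocytes, against 1.27 and 1.69 in GV oocytes of the sex-converted line and 1.55 and 1.92 in those of the native line. The 2 coactivator mRNAs were thus at close levels at GV, and at MII Cdc20 exceeded Fzr1 in each library by 23.5-fold or more. With the longest transcript as length the ratio was 16.7 to 30.4 at MII and 0.901 to 1.36 at GV. Mad2l1 over Mad1l1 was 8.92 to 10.6 at MII and 0.629 to 1.15 at GV, and Mad2l1bp over Trip13 was 72.1 to 165 and 12.1 to 14.6. Cdc27 over Anapc2 was 61.6 to 141 at MII and 0.47 to 0.847 at GV. In none of these pairs did the stages overlap. Each pair sets a gene called higher in both lines over a gene called lower in both or, for Trip13, in neither. The separation of the stages thus follows largely from the changes given above and adds no support to them. No test was run on these ratios.

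**Figure D4:**
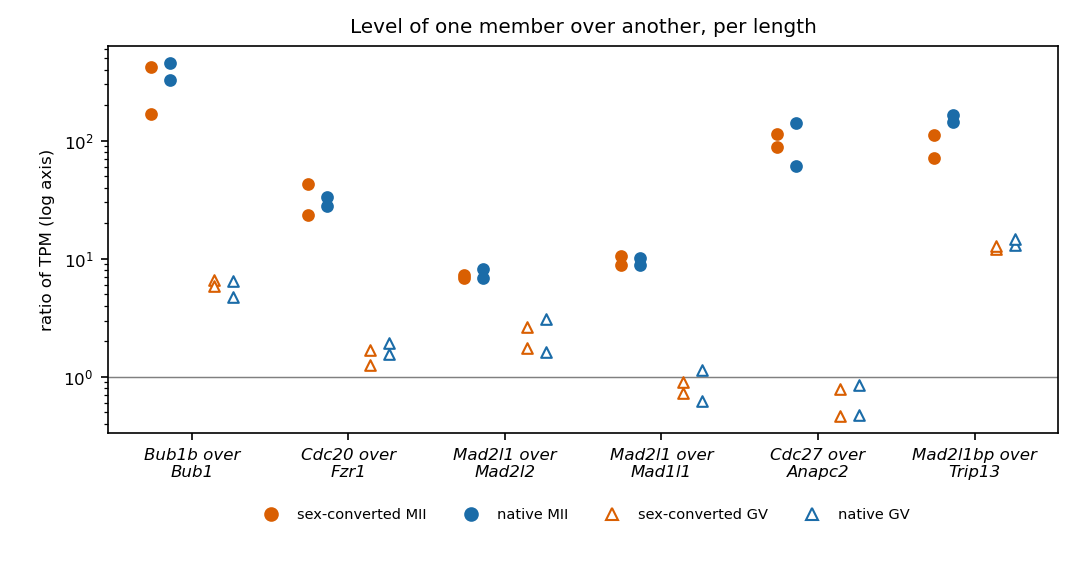
Ratio of the TPM of one gene to that of another within each library, on a log axis, for 6 pairs of partners. Filled circles (left of each pair) are MII and open triangles GV libraries, orange is the sex-converted and blue the native line, and the grey line marks a ratio of 1. In every pair the first gene was called higher in both lines and the second was not. The MII circles lie above the GV triangles in each pair, by the widest margin for Cdc27 over Anapc2.

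The end of the 3′ UTR was read for motifs, since in maturing oocytes the cytoplasmic polyadenylation element (CPE) near the hexamer recruits Cpeb1 and lengthens the tail. TTTTAT and TTTTAAT were searched on the transcribed strand in the last 100 bases of 1 annotated transcript per gene. A CPE was found in 5 of the 32 genes (15.6%) and in 19.2% of the 12493 tested genes with such a transcript. Of the genes higher in both lines 2 of 8 had it, and of those lower in both lines 2 of 13. Among all tested genes the shares were 32.9% of those higher and 10.1% of those lower in both lines. The matches of 4 genes are shown, as examples of where the element lies, with the CPE and the hexamer AATAAA or ATTAAA in capitals.
Bub1b: tgtaTTTTATAATAAAatagtttttgttac
Cdc20: tttaTTTTATtttttctAATAAAgttcgta
Fbxo5: ttttTTTTATatctgtgaatacctgttttc
Spdl1: tagaTTTTATgactcaaacatcaataattt

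In Bub1b and Cdc20, which rose, the CPE lies just before the hexamer, ending 21 and 29 bases from the annotated transcript end, and each has 1 further TTTTAT upstream, which in Cdc20 overlaps the one shown by 1 base. In Fbxo5, which fell, and in Spdl1 it lies 78 and 50 bases from the end, and the hexamer is outside the bases shown. The other gene with a match, Anapc7, also fell. Its CPE ends 2 bases from the end, closer than in the genes shown, and its hexamer ends 13 bases from it. A relation between position and direction of change was not tested. In GRCm38 the windows are chr2:118641561-118641590 on the plus strand for Bub1b and chr4:118432910-118432939 on the minus strand for Cdc20. For Fbxo5 and Spdl1 they are chr10:5799218-5799247 and chr11:34809220-34809249, both on the minus strand. All lie in the last exon, within the 3′ UTR of Bub1b-201, Cdc20-201, Fbxo5-201 and Spdl1-201 as annotated in GENCODE M21. Cdc27, Mad2l1, Mad2l1bp, Anapc10, Cdc26 and Anapc1 rose without such a match in this window. The end that oocytes use can differ from the annotated one, and a match is not evidence of binding.

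Between the lines, 0 of the 32 genes were called at either stage, against 0.0134% of all genes at each stage. At MII 1 of the 32 had an unadjusted p under 0.05, and at GV 0 did. DESeq2 also called 0 at both stages. The 95% interval of sex-converted over native stayed inside 2-fold in both directions for 25 of 32 genes at MII and for 30 of 32 at GV. In absolute log2 fold change the median of the 32 was 0.133 at MII and 0.0964 at GV, beside 0.229 and 0.186 over all genes. Among genes with a mean of at least 50 reads the gap was smaller. There the 32 had 0.13 at MII and 0.0938 at GV, beside 0.161 and 0.138 over the 9947 genes tested. Bub1b differed by 0.043 (95% interval -0.26 to 0.347) at MII and by 0.018 (95% interval -0.285 to 0.322) at GV, the narrowest intervals in the list.

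The widest differences at MII were those of Cdc23 (log2 fold change 0.91, 95% interval 0.0536 to 1.77, unadjusted p = 0.0393, adjusted p = 1), Trip13 (0.79, 95% interval -0.0719 to 1.64) and Bub1 (0.74, 95% interval -0.144 to 1.62). Cdc23 was higher in both sex-converted MII libraries than in either native one. Without sex-converted MII replicate 1 the value of Bub1 was -0.16. The change in maturation was likewise not called as different between the lines by edgeR for any of the 32 genes, or for any of the 14929 tested (0%), and DESeq2 called 0 of the 32. At an unadjusted p under 0.05 there were 329 of all genes and 1 of the 32, Cdc23, whose change was higher by 1.37 in the sex-converted line (95% interval 0.22 to 2.53, unadjusted p = 0.0238, adjusted p = 1). That interval lay within 2-fold for 15 of the 32 genes, so a moderate difference in the change could have been missed for the other 17.

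**Figure D5:**
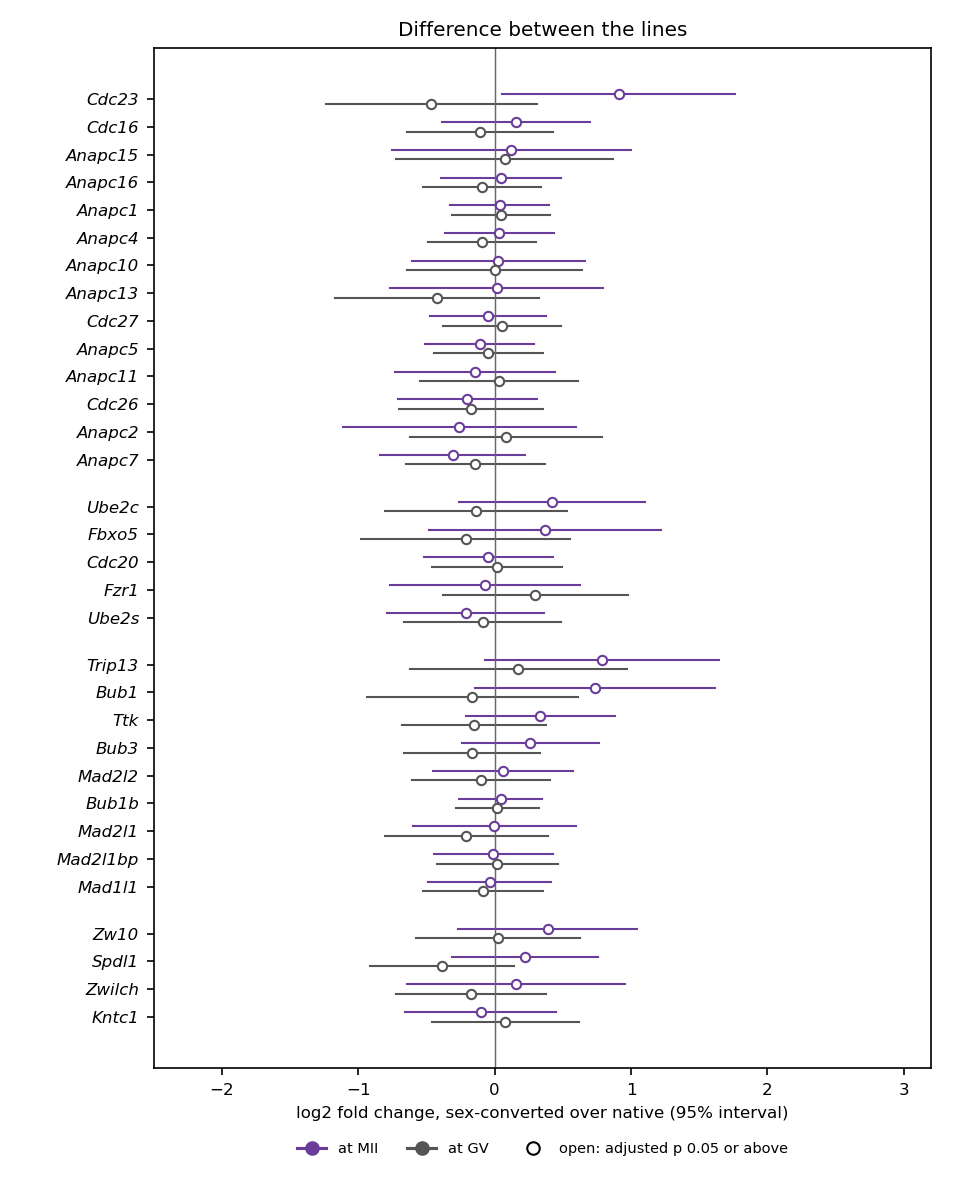
Log2 fold change of sex-converted over native for each gene at MII (purple) and at GV (grey), with 95% intervals, grouped by role. All points are open, as none was called. At MII Cdc23, Trip13 and Bub1 lie furthest to the right, at 0.91, 0.79 and 0.74.

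Other genes of the pathway were taken from lists of substrates and regulators of the APC/C and of kinetochore partners of the checkpoint. Of 22 substrates and regulators 20 were tested, and Ccna1 and Cdc20b, with at most 1 read per library, were not. In the sex-converted line 15 rose and 4 fell (median 1.67 on the log2 scale), and in the native line 14 rose and 4 fell (median 1.70). These are shares of 75% and 20% in the sex-converted line and 70% and 20% in the native line, beside 29.3% and 36.2%, and 29.6% and 35.7%, of all genes. The 3 that rose most in the native line were Fbxo43 (Emi2), the inhibitor that holds the APC/C in the MII egg, Cks1b, a Cdk-binding subunit, and Cdca3, an APC/C substrate. Fbxo43 had 873 and 893 CPM in sex-converted and 907 and 886 CPM in native MII oocytes, against 102 and 129 CPM in sex-converted and 116 and 101 CPM in native GV oocytes. Its log2 fold change was 2.93 (SE 0.182) in the sex-converted and 3.04 (SE 0.183) in the native line, opposite in sign to that of Fbxo5. Cks1b had 2.62 and 2.64, and Cdca3 had 2.64 in each line. The 3 that fell most were the kinase Cdk1 (-4.93 in the sex-converted and -4.82 in the native line), the centrosomal kinase Nek2 (-3.44 and -4.21) and the meiotic cyclin Ccnb3 (-3.51 and -3.55).

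All 24 kinetochore partners were tested. In each line 10 rose and 10 fell (41.7% each). Among all genes 29.3% rose and 36.2% fell in the sex-converted line, and 29.6% rose and 35.7% fell in the native line. The median change of the partners on the log2 scale was -0.22 in the sex-converted and -0.50 in the native line. Sgo2a, the shugoshin that protects centromeric cohesion, had 3.01 and 2.41, the kinase Aurkc 1.85 and 1.72, and Cdca8 (borealin) of the same passenger complex 1.74 and 1.68. The kinase Haspin, which marks centromeric chromatin for that complex, had -3.42 in the sex-converted and -3.93 in the native line. Dynll1, a dynein light chain, had -3.37 and -3.06, and Zwint, which links the kinetochore scaffold to the RZZ complex, had -3.07 and -2.99. Zwint had 9.63 and 7.42 CPM in sex-converted and 13.1 and 7.41 CPM in native MII oocytes, against 64.9 and 78.0 CPM in sex-converted and 91.9 and 71.9 CPM in native GV oocytes, with no overlap between stages.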

How the data were processed

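The authors deposited 1 table of raw counts of reads per gene. Per the submitters' processing notes, Trimmomatic 0.38, HISAT2 2.1.0, featureCounts 2.0.0, DESeq2 1.30.1 and mm10 were used. Per the labels' protocols, libraries were stranded and made with 13 cycles of PCR and single reads of 75 bases. No source used here gives the strand setting, the handling of multi-mapped reads or the annotation used in counting. Names, lengths and transcripts came from GENCODE M21 on GRCm38, the assembly of mm10, and 55144 of 55385 identifiers matched without version.

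The 8 libraries were fitted together, each group with its own coefficient, in edgeR 4.0.16 (R 4.3.3; estimateDisp, glmQLFit and glmQLFTest, two-sided, TMM), which has 4 residual degrees of freedom, after filterByExpr at a minimum count of 10. A standard error is the size of the log2 fold change divided by the root of F. The code was tested on simulated data. Alternatives were RLE factors, library totals, no filter, a mean of at least 50 reads, DESeq2 1.42.0, only the groups compared, the replicate number as a block, and each library left out. Copies of the transcripts were searched with BLAST 2.17.0 at 95% identity over 150 bases or more.

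Values per library are given for genes called with a 2-fold change or more in either line, other members by ranges, and of each further list the 3 most raised and 3 most lowered genes of the native line. The members, lists and tests were chosen with earlier results of these data known. For motifs, the transcript with the longest 3′ UTR at support level 1 was taken. The sequence of 1 match is not reported here. A planned comparison of protein motifs was not run.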

Additional observations from a re-analysis of the deposited data

How the results depend on the processing

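Among alternatives other than library totals, 8 of 9 rises and 14 of 16 falls in the native line, and 8 of 8 rises and 12 of 14 falls in the sex-converted line, kept their calls. The exceptions were Ube2s, Ube2c and Spdl1 in the native and Bub3 and Kntc1 in the sex-converted line. With library totals only, 22 of the 32 genes were lower in the sex-converted line against 14, since all changes shift down by construction. Signs turned with library totals for Anapc1 (-0.18 in the sex-converted and -0.14 in the native line), Ube2s (-0.40 and -0.26), Mad2l2 (-0.39 and -0.53) and, in the sex-converted line, Cdc16 (-0.90, called lower with adjusted p = 0.00633). The other reversals concern genes that were not called. In the sex-converted line Anapc13 had 0.0078 with RLE factors, 0.0077 with DESeq2, 0.097 without GV replicate 1 and 0.24 without MII replicate 2. Cdc16 had -0.018 with no filter, -0.074 at a mean of 50 reads, -0.069 without GV replicate 1 and -0.17 without MII replicate 2. Over the left-out libraries Cdc16 had -0.17 to 0.20, Trip13 -0.49 to 0.15 (without MII replicate 2) and Spdl1 -0.24 to 0.23 (without GV replicate 2). In the native line Anapc11 had -0.36 to 0.26 (without GV replicate 2). For these the cause was not tested. Leaving out each library gave 8 to 9 rises and 14 to 16 falls in the native line, and 8 rises and 12 to 13 falls in the sex-converted line. Counts of 0 between the lines and for the interaction stayed at 0 in every alternative run.

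With the replicate number as a block, 8 rose and 16 fell in the native line and 8 rose and 14 fell in the sex-converted line. The labels do not say whether the numbers pair the samples. Replicate differences of the groups correlated between -0.576 and 0.175 across genes, which cannot settle it. At GV, sex-converted replicate 2 correlated with native replicate 1 at 0.990, and sex-converted replicate 1 with native replicate 2 at 0.988. Within a line the GV replicates correlated at 0.980 (sex-converted) and 0.978 (native). The cause was not tested. The value of -0.576 is that of the lines at GV, and with the native numbers swapped as a block among the GV libraries, an alternative chosen after seeing the data, 0 of the 32 genes and 99 of all genes were called between the lines. That fit has 1 residual degree of freedom. A CPE within the last 150 bases was found in 6 of the 32 genes against 5 within 100. With 150 bases it was found in 2 of the 8 genes that rose in both lines and in 3 of the 13 that fell. Among all genes these shares were 40.6% and 13.6%. Depth limits Cdc23, Trip13, Zwilch, Anapc13, Anapc2 and Anapc15, with fewer than 100 reads in every MII library. Anapc2 had 29 to 78 and Anapc15 39 to 82 reads per MII library.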
